A study of Mus musculus with 6 samples.

Results

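The transcription factors that set the memory, effector and exhausted states of CD8+ T cells were examined in mouse T cells cultured with macrophage supernatant. The genes were chosen by symbol, as the rows of the count table named Tcf7, Lef1, Id2, Id3, Prdm1, Bach2, Tox, Foxo1, Bcl6 and Klf2. All 10 were found among the 55401 genes of the table. In 3 NFL samples the supernatant came from macrophages stimulated with neurofilament light chain (NFL), which forms part of the axonal cytoskeleton, and in 3 control samples from macrophages left unstimulated. The design text says that the T cells came from mouse spleen by bead selection for CD8a, and both groups received 50% supernatant in medium with 2% serum. The macrophages of both groups were grown from CD11b+ spleen cells with 50 ng/mL M-CSF over 7 days, and those of the NFL group then received 5 µg/mL NFL for 24 h. That NFL is described as a freeze-thawed lysate of sciatic nerve, and the methods of the study give a lower concentration for its co-cultures. The study used female C57BL/6 and NOD-SCID mice, and which strain gave these T cells, and how long they were kept in the supernatant, is not stated for these samples.

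In T cells some of these factors act together and others oppose each other. TCF1, the product of Tcf7, and its relative LEF1 keep naive, memory and stem-like cells able to renew themselves. ID2 and ID3 have no DNA-binding region and act by capturing E proteins, the E-box binding factors encoded by Tcf3, Tcf4 and Tcf12, with ID2 linked to effector and ID3 to memory cells. Blimp-1, the product of Prdm1, drives terminal effector differentiation, whereas BCL6 and BACH2 restrain it. FOXO1 and its target KLF2 maintain quiescence and the homing receptors of resting cells, and TOX establishes the exhausted state under chronic stimulation.

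Of the 10 genes, 4 were expressed, taken here as at least 1 CPM (read counts scaled to a common library size) in at least 3 libraries. These were Id2, Foxo1, Prdm1 and Bcl6. The other 6, Tcf7, Lef1, Id3, Bach2, Tox and Klf2, had at most 13 counts in any library. Id2 was lower in the NFL than in the control samples, a change of -14.1%, and no difference past the threshold was found for Foxo1, Prdm1 or Bcl6. The 4 expressed genes were also the ones that could be tested.

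The libraries held 15843045 to 24639756 counts, so that 3 counts, taken as the floor of detection, corresponded to 0.122 to 0.189 CPM. Floors and counting limits cover counting error only. The labelled cell type was checked against its markers, and 10 of 12 T cell markers were expressed, led by Thy1 with a median of 1641 CPM. Cd3e, a subunit of the T cell receptor complex and 1 of the 10 T cell markers tested, fell with NFL (log2 fold change -0.28, edgeR adjusted p = 5.7e-04). Cd2 and Cd5 had 0 counts in every library. Cd8a lay at 3.20 to 4.46 CPM and Cd4 at 23.3 to 27.6 CPM, so Cd4 exceeded Cd8a in every library of these CD8a-selected cells, which are therefore called T cells here. Of 12 macrophage markers, 9 were at or below the floor in every library, with C1qa at 0 counts and Lyz2 and Csf1r at no more than 3. Their summed level was 25.3 to 28.4 CPM in the control and 20.3 to 24.4 CPM in the NFL libraries, almost all of it Cd68, which fell (log2 fold change -0.26, edgeR adjusted p = 0.0494), a call lost in 6 alternatives. Of 10 B cell markers, 6 were at or below the floor, including Ms4a1 and Ighm, which had 0 counts. The other 4, Cd79a, Cd79b, Pax5 and Cr2, were expressed, with Pax5 highest at 8.57 to 10.6 CPM. All 4 were tested and 0 passed. Cd79a (log2 fold change 0.15), Cd79b (0.39) and Cr2 (0.38) lay above 0 and Pax5 (-0.06) below. The summed B cell level was 16.6 to 17.8 CPM in the control and 17.9 to 19.7 CPM in the NFL libraries. The natural killer cell list summed to 744 to 795 CPM in the control and 731 to 750 CPM in the NFL libraries, nearly all from Nkg7, which cytotoxic T cells also express, and its defining gene Ncr1 had 0 counts. Klrb1c of that list fell, with a log2 fold change of -0.51 (edgeR adjusted p = 2.4e-06). The summed plasma cell level was 206 to 215 CPM against 204 to 205 CPM and rested on Xbp1, and the summed erythroid level was 0.872 to 1.86 CPM over all libraries. Their part in the results was not tested.

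The promoters of 2 expressed and 2 nearly silent members are shown, because each pair sets an expressed gene beside a functional relative that was close to absent in the same cells: Id2 beside Id3, and Foxo1 beside its target Klf2. The 300-base windows run from 250 bases before to 50 bases after a RefSeq start site in GRCm38.p6, 5′ to 3′ on the gene's strand, and RefSeq windows were found for 9 of the 10 genes. Tox had no entry. Capitals mark the E-box CANNTG, the motif bound by the E proteins that ID2 and ID3 capture. The Id2 window is chr12:25096043-25096342 on the minus strand, the Id3 window chr4:136143572-136143871 on the plus strand, the Foxo1 window chr3:52268087-52268386 on the plus strand and the Klf2 window chr8:72318812-72319111 on the plus strand.
Id2 promoter: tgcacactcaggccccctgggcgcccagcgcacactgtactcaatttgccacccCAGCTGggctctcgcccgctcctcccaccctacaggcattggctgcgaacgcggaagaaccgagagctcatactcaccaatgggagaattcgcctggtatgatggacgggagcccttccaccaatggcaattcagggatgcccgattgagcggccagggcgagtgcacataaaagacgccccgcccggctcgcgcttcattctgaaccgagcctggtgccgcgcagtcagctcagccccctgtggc
Id3 promoter: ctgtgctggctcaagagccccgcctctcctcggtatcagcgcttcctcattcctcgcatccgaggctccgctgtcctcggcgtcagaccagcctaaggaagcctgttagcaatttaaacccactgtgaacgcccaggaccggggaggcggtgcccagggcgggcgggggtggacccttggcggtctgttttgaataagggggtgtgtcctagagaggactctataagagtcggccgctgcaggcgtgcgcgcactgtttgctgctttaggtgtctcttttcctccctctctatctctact
Foxo1 promoter: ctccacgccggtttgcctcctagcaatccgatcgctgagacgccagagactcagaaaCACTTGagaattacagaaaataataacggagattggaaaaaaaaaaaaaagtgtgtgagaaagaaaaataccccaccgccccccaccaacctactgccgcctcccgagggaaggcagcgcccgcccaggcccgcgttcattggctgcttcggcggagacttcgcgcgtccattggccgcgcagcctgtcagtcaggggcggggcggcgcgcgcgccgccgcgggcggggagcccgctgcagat
Klf2 promoter: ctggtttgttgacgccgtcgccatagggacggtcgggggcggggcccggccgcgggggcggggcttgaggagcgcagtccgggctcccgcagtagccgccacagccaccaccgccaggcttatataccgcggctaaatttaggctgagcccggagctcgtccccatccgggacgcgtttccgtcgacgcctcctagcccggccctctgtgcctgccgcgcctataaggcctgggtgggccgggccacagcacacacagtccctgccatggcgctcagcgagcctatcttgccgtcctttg

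All 4 windows were rich in CpG. The Id2 window held 21 CpG and 63.3% GC, and that of Id3, which had no read in any library, held 19 CpG and 60.0% GC. Foxo1 had 31 CpG at 61.3% GC and Klf2 32 CpG at 69.3% GC. Over all 32851 promoter windows of 27025 genes the median was 7 CpG and 52.7% GC, and the 90th percentile was 31 CpG. The expressed and the nearly silent genes shown were therefore not separated by base composition. Motifs were searched on both strands. Id2 and Foxo1 each held 1 E-box and Id3 and Klf2 held 0, against 72.3% of all windows with at least 1. The FOXO core TGTTTAC, found in 3.65% of all windows, and the TCF/LEF core CTTTGA, found in 16%, had no match in these 4 windows. The GC box GGGCGG, found in 35.7% of all windows, matched 1 time in Id2, 2 times each in Id3 and Klf2, and 5 times in Foxo1. A match is a description of the letters and no evidence of binding. The remaining members' windows were searched too, and 1 FOXO core was found in that of Prdm1 and 1 in the second of the 2 windows of Tcf7. The TCF/LEF core matched 2 times in a window of Lef1, 1 time in that of Bach2 and 1 time in a window of Bcl6. The E-box matched 1 to 3 times in the windows of Lef1 and 1 time in each window of Tcf7. It matched 2 times in Prdm1, 0 times in Bach2, and 1 and 0 times in the windows of Bcl6. E-boxes were thus found in windows of both expressed and nearly silent members.

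Levels were compared between genes per exon length, as RPKM (reads per kilobase of exon, scaled to library size), with exon lengths from GENCODE M21. The length of a gene was the union of all its annotated exons, which can be longer than the transcript expressed. Id2 lay at 147 to 178 RPKM (median 164), and 97.2% of the 14082 genes tested had a lower mean CPM. Foxo1 followed at 7.36 to 8.44 RPKM, Prdm1 at 4.95 to 5.84 and Bcl6 at 0.111 to 0.385. The ranges of these neighbours over the 6 libraries did not overlap. Below Bcl6, Lef1 lay at 0.0231 to 0.0919 RPKM and Bach2 at 0.0057 to 0.0442, and these 2 ranges overlapped. For Tcf7 no length was used, because its identifier differed in version from that of the annotation. The plot of CPM by library shows the gap between Id2 and the rest.

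**Figure D1:**
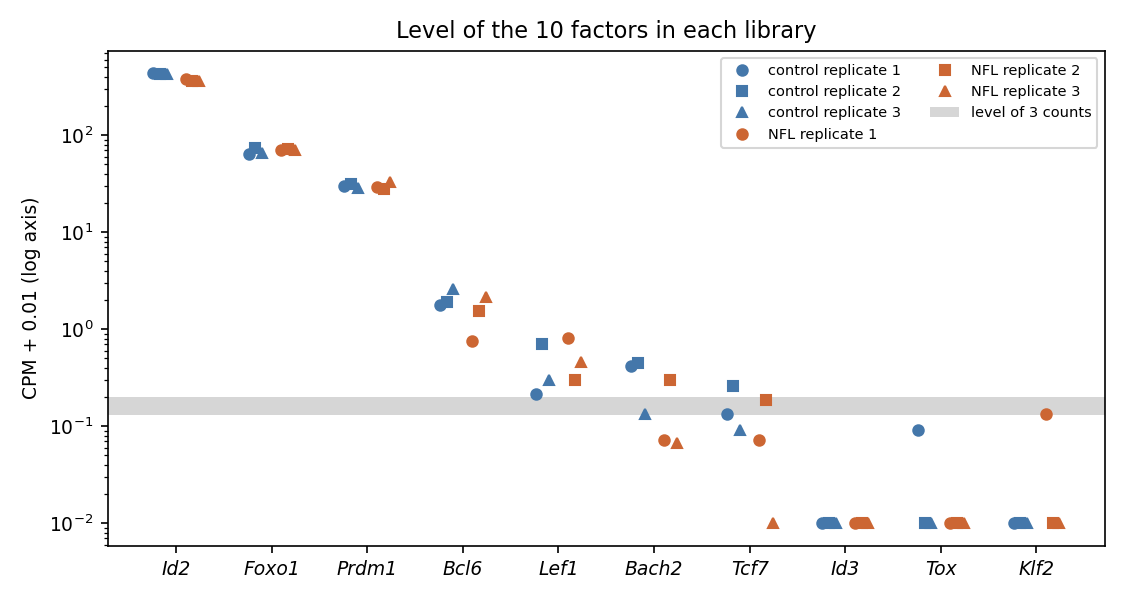
CPM of the 10 members in each of the 6 libraries, on a log axis with 0.01 CPM added so that zeros can be drawn. Colours give the group, symbols the replicate and the grey band the level of 3 counts. Id2, Foxo1, Prdm1 and Bcl6 stand above the floor in every library, as does Lef1 at a lower level, and the remaining genes lie near or below it. In NFL replicate 1 Lef1 (0.808 CPM) lies above Bcl6 (0.745 CPM).

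Id2, the inhibitor of E proteins linked to effector cells, was the most abundant member. Its level was 434.3, 422.8 and 422.9 CPM in the control libraries and 378.6, 359.4 and 361.8 CPM in the NFL libraries. Every NFL library was lower than every control library. Of all genes tested 22.7% had groups that did not overlap in either direction. The mean fell from 427 ± 6.59 CPM to 367 ± 10.5 CPM (SD, n = 3 each). The T cell marker Cd3e, the natural killer cell marker Klrb1c and the macrophage marker Cd68 fell beside it, as given above, and their part in its fall was not tested. The log2 fold change of Id2 was -0.22 with a standard error of 0.030 and a 95% interval of -0.28 to -0.16, a fall of 14.1% (adjusted p = 3.9e-07, edgeR quasi-likelihood test, Benjamini-Hochberg over all genes). The exact two-sided permutation test gave p = 0.1, the smallest value that 3 against 3 samples allow. Id2 was 1 of 4 tested members past the threshold of 0.05, against 7.00% of all genes tested in either direction and 3.53% in the lower direction. Of all genes tested, 78.9% had a smaller absolute log2 fold change than Id2. The labels do not say whether the 3 samples of a group came from separate mice or cultures, so the p-values measure the spread between these samples, which may be technical. In bulk RNA, fewer cells with the transcript and less transcript per cell cannot be told apart.

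Foxo1, the quiescence factor that PI3K and AKT signalling keeps out of the nucleus, was present at 63.8, 73.1 and 65.5 CPM in the control libraries. In the NFL libraries it lay at 70.7, 71.1 and 70.3 CPM. The NFL libraries sat closely together inside the wider control range. The means were 67.5 ± 4.96 and 70.7 ± 0.373 CPM (SD, n = 3 each), and the log2 fold change was 0.07 (SE 0.051, 95% interval -0.03 to 0.18, edgeR adjusted p = 0.478). It was 0.13 without control replicate 2 and 0.037 without control replicate 1, in neither case past the threshold. In the annotation Foxo1 overlaps Gm38034 on the same strand, which had 14 counts in all, and Gm20402 on the other strand, which had 0. Foxo1 itself had 4335 counts over the control and 3603 over the NFL libraries.

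Prdm1, which encodes Blimp-1, lay at 29.9, 31.4 and 28.6 CPM in the control libraries and at 29.2, 27.6 and 32.6 CPM in the NFL libraries. The NFL libraries held both the lowest and the highest value. The means were 30.0 ± 1.42 and 29.8 ± 2.53 CPM (SD, n = 3 each), and the log2 fold change was -0.0036 (SE 0.074, 95% interval -0.15 to 0.14, edgeR adjusted p = 0.988).

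Bcl6, the repressor that opposes Blimp-1, was at the lower edge of what could be tested. It had 43, 30 and 63 counts in the control libraries and 12, 26 and 38 in the NFL libraries. At library scale this was 1.75, 1.88 and 2.58 CPM against 0.745, 1.51 and 2.15 CPM. The highest NFL library exceeded 2 of the control libraries, so the groups overlapped. The log2 fold change was -0.49 (SE 0.313, 95% interval -1.12 to 0.14, edgeR adjusted p = 0.433), the widest interval of the 4 tested members. It was -0.87 without NFL replicate 3 (edgeR adjusted p = 0.228), -0.29 without control replicate 3 (0.759) and -0.18 without NFL replicate 1 (0.847), in no case past the threshold. Gm37419, which overlaps Bcl6 on the other strand, had 90 counts in all. How reads in an overlap were counted, and whether strand was used, is not given in the sources used here.

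**Figure D2:**
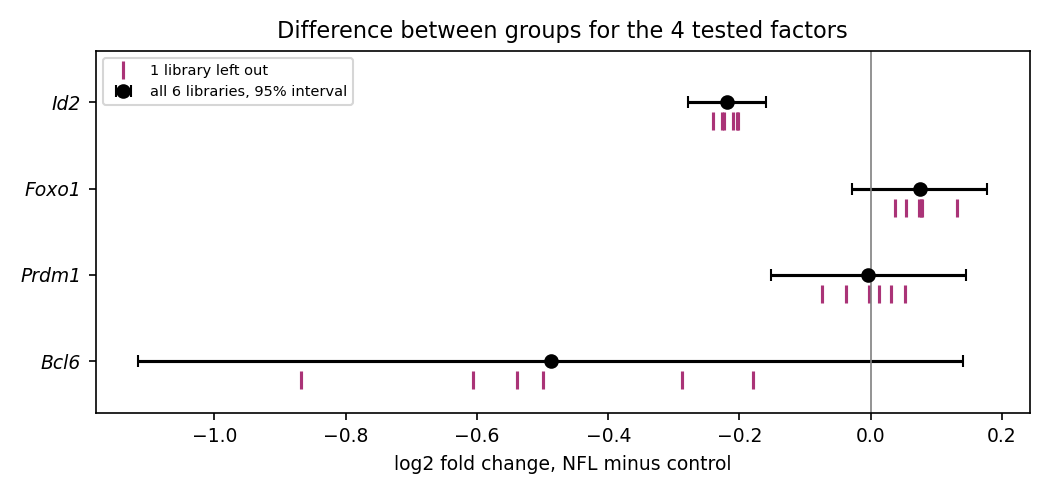
Log2 fold change, NFL minus control, of the 4 tested members: points with 95% intervals are the edgeR fit of all 6 libraries, and ticks below them the estimates with 1 library left out. The interval and all ticks of Id2 lie below 0, and the intervals of Foxo1, Prdm1 and Bcl6 cross 0.

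The 6 members below the filter were described by their counts. Lef1, the relative of TCF1, had 5, 11 and 7 counts in the control libraries and 13, 5 and 8 in the NFL libraries. Tcf7 had 3, 4 and 2 counts against 1, 3 and 0. Both groups overlapped for these genes, and Lef1 alone of the 6 was above the floor in all libraries. Bach2, which holds back effector genes, had 10, 7 and 3 counts in the control libraries and 1, 5 and 1 in the NFL libraries. Klf2 had 2 counts in NFL replicate 1 and 0 elsewhere. Tox had 2 counts in control replicate 1 and 0 elsewhere, and Id3 had 0 in all 6 libraries. For Id3, Tox and Klf2 no library exceeded 3 counts, so expression below 0.122 to 0.189 CPM would not have been detectable at this depth. The 6 genes together had 54 counts in the control and 39 in the NFL libraries. Fitted without a filter on low counts, which left 5 of the 6 in the test, their lowest edgeR adjusted p was 0.70.

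The families of the members show which relatives were transcribed where a member was not. Id2 held 98.4% of the ID family's summed median RPKM, with Id1 at a median of 2.59 RPKM and Id4 at 0. Bach1, a heme-regulated repressor, held 99.8% of the BACH level with a median of 9.99 RPKM, against 0.0208 RPKM for Bach2. In the TOX family 99.9% belonged to Tox4, with a median of 20.7 RPKM. Tox2 was low and Tox3 had 0 counts. In these families a member at or near 0 thus had a relative with a clear level.

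Per kilobase of exon, Foxo1 was not the most abundant of its family. Foxo4 had a median of 11.9 RPKM, Foxo1 8.14 RPKM and Foxo3 0.061 RPKM, and the ranges of Foxo4 and Foxo1 did not overlap. In CPM the order was reversed, with medians of 70.5 for Foxo1 and 41.6 for Foxo4. The order per kilobase therefore rests on the exon lengths used, 8.665 kb for Foxo1 and 3.485 kb for Foxo4. Prdm1 ranked below Prdm4 (median 12.6 RPKM) and Prdm2 (7.00 RPKM) and above Prdm10 (2.64 RPKM). In the KLF family Klf2, Klf3 and Klf4 had medians of 0, whereas Klf6 stood at 15.6 RPKM, Klf7 at 12.4, Klf10 at 8.05, Klf11 at 6.64 and Klf13 at 5.60. Tcf7l1 led the measurable TCF/LEF genes with 0.144 RPKM. Of 23 family relatives, 14 were tested and 0 passed the threshold by edgeR, against 7.00% of all genes tested. At an unadjusted p under 0.05 there were 3 by edgeR and 3 by limma-voom, and 1 by DESeq2, each again with 0 past the adjusted threshold. Over all 14082 genes tested, 2711 had an unadjusted edgeR p under 0.05, so the 3 of 14 by edgeR were close to that background.

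**Figure D3:**
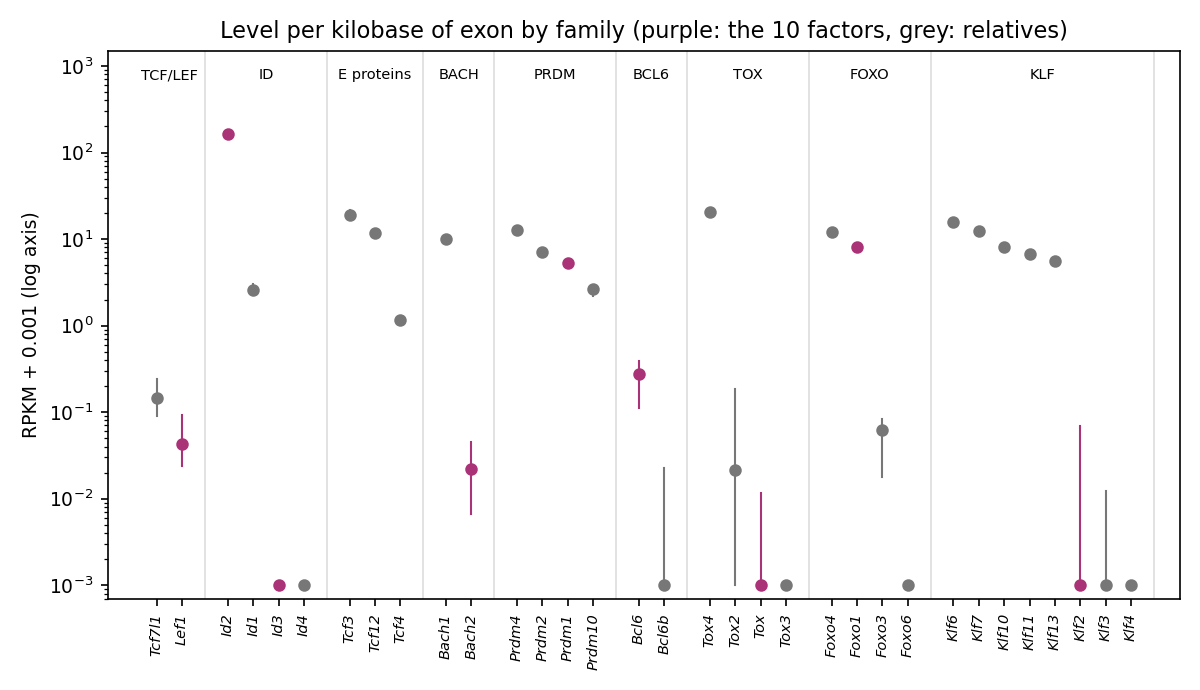
Median RPKM of each member and its family relatives over the 6 libraries, on a log axis with 0.001 RPKM added, with lines from the lowest to the highest library, in purple for members and grey for relatives; genes without an exon length (Tcf7, Tcf7l2 and Prdm11) are not drawn. Id2 at 164 RPKM is the highest point, while Bach2, Tox and Klf2 lie far below relatives such as Bach1 (9.99), Tox4 (20.7) and Klf6 (15.6).

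The partners of ID2 were compared next. Tcf3, which encodes the E proteins E12 and E47, stood at 86.7, 85.0 and 82.1 CPM in the control libraries and at 70.4, 71.0 and 69.6 CPM in the NFL libraries. It fell without overlap between groups, with a log2 fold change of -0.27 (SE 0.047, edgeR adjusted p = 6.6e-05). Tcf12 was flat, with a log2 fold change of -0.0062 (edgeR adjusted p = 0.954), and Tcf4 had -0.13 (edgeR adjusted p = 0.310) although its groups did not overlap. In RPKM the medians were 19.0 for Tcf3, 11.7 for Tcf12 and 1.16 for Tcf4.

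Because both Id2 and Tcf3 were lower, the level of Id2 was divided by the summed RPKM of the 3 E protein genes. The ratio was 5.17, 5.15 and 5.21 in the control libraries and 5.15, 4.83 and 4.99 in the NFL libraries. NFL replicate 1 lay within the control range, and the other 2 NFL libraries lay below all controls. Per kilobase of exon, the Id2 transcript thus exceeded the sum of its partners in all libraries. The size of the ratio rests on the exon lengths used, 2.44 kb for Id2 against 4.04 kb for Tcf3, 15.5 kb for Tcf12 and 27.4 kb for Tcf4. In CPM, without lengths, the medians were 401 for Id2, 76.5 for Tcf3, 182 for Tcf12 and 31.7 for Tcf4. Protein was not measured.

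**Figure D4:**
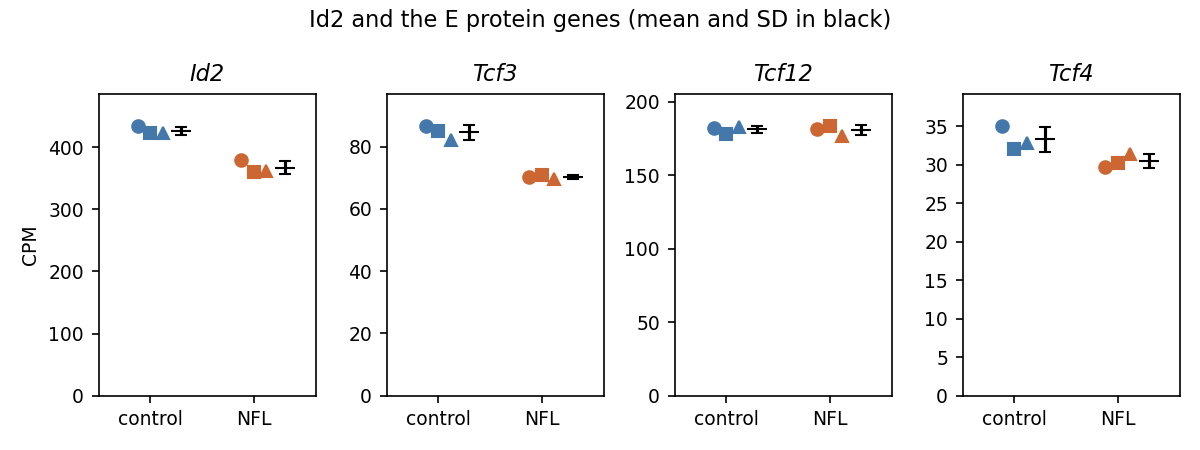
CPM of Id2, Tcf3, Tcf12 and Tcf4 in each of the 3 control and 3 NFL libraries, each panel on its own axis from 0, with the group mean and SD in black. The groups of Id2, Tcf3 and Tcf4 do not overlap, those of Tcf12 do, and Id2 and Tcf3 passed the test.

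Of the 23 genes encoding E proteins and other partners of the members, 22 were found and 20 tested. Of these 2 fell, among them Tcf3, 1 rose and 17 did not pass the test, where 7.00% of all genes tested passed. The gene that rose was Maff, a small MAF protein that pairs with BACH factors. It stood at 17.5, 18.3 and 18.7 CPM in the control and 22.9, 22.1 and 21.2 CPM in the NFL libraries (0.28, edgeR adjusted p = 0.0335). The call for Maff was lost in 7 alternatives, among them DESeq2. The median log2 fold change of the 20 was -0.04, against -0.00099 over all genes tested.

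Among 20 regulators of FOXO1, 19 were tested and 1 passed. This was Pik3cd, the catalytic subunit p110δ of the leukocyte PI3K that leads to AKT. It stood at 252.6, 269.3 and 261.3 CPM in the control and at 220.6, 222.4 and 222.3 CPM in the NFL libraries. Its log2 fold change was -0.23 (edgeR adjusted p = 5.7e-07), and the groups did not overlap. The share, 1 of 19, was close to the 7.00% of all genes.

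Targets of FOXO1 and KLF2 were mostly homing receptors and brakes on growth. Of 22 such genes, 14 were tested, 3 fell, 1 rose and 10 did not pass, against 7.00% past the threshold among all genes. Ccr7, the homing receptor for lymph nodes, rose from 1.54, 1.51 and 1.02 CPM to 2.86, 2.91 and 3.17 CPM (log2 fold change 1.14, edgeR adjusted p = 0.0045). It stayed at a few CPM, and DESeq2 gave it no adjusted p. Il7r and S1pr1, receptors of resting cells, were at no more than 2 counts in any library.

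The 3 targets that fell are genes that restrain metabolism or growth. Txnip, which limits glucose uptake, stood at 112.4, 117.7 and 114.0 CPM in the control and 92.2, 96.0 and 94.4 CPM in the NFL libraries (log2 fold change -0.28, edgeR adjusted p = 1.9e-06). Sesn3, a stress-induced inhibitor of mTORC1, fell and had a log2 fold change of -0.27 (edgeR adjusted p = 4.3e-04). Pik3ip1, an inhibitor of PI3K, fell by 0.36 (edgeR adjusted p = 0.0247), a call lost in 4 alternatives. Other brakes on growth in the list did not pass and lay on both sides of 0. Among these were Gadd45a (log2 fold change -0.55, at 6 to 23 counts), Ccng2 (-0.16), Cdkn1b (-0.06), Cdkn1a (-0.02), Sesn1 (0.03), Gadd45b (0.05) and Btg1 (0.22). Foxo1 itself showed no difference past the threshold, and the median of the 14 was -0.11.

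The genes that mark the cell states moved in both directions. Of 20 stem-like and memory genes, 13 were tested, 1 rose, 2 fell and 10 did not pass (7.00% of all genes passed). Ccr7 rose as above. Satb1, a chromatin organiser, fell by 0.13 (edgeR adjusted p = 0.0309), lost in 8 alternatives, and Il2rb, a receptor chain for IL-2 and IL-15, fell by 0.12 (edgeR adjusted p = 0.0081), lost in 3. Of the 20 genes, 12 were expressed. Among them were Bcl2 at 669 to 727 CPM, Eomes at 419 to 450 CPM and Myb at 138 to 151 CPM, none past the threshold. Slamf6, a marker of stem-like cells, had at most 1 count.

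Of 20 effector genes, 14 were tested, 3 rose, 2 fell and 9 did not pass (7.00% of all genes passed). Ifng, the main cytokine of cytotoxic T cells, rose from 10.8, 8.66 and 12.5 CPM to 19.9, 18.7 and 18.6 CPM (log2 fold change 0.82, edgeR adjusted p = 1.2e-07). The chemokine gene Ccl5 had a log2 fold change of 0.96 (edgeR adjusted p = 1.9e-04), from 4.63, 2.38 and 3.40 CPM to 6.15, 7.62 and 7.02 CPM. Il2ra, the high-affinity chain of the IL-2 receptor, rose by 0.18. Gzma, a granzyme, went the other way, from 270.1, 239.3 and 274.9 CPM to 194.1, 186.4 and 194.5 CPM (-0.45, edgeR adjusted p = 1.1e-13). Runx3, a CD8 lineage factor outside the rule of at most 4 names a list, also fell. The median of the 14 was 0.03.

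Of 20 exhaustion genes, 11 were tested, 4 rose, 3 fell and 4 did not pass (7.00% of all genes passed). Tnfrsf9, the costimulatory receptor 4-1BB, rose from 416.5, 413.6 and 401.6 CPM to 518.2, 502.0 and 523.7 CPM (log2 fold change 0.33, edgeR adjusted p = 2.1e-12). The nuclear receptor gene Nr4a3 rose by 0.50 (edgeR adjusted p = 5.7e-07). The inhibitory receptor gene Tigit fell from 10.8, 11.2 and 9.05 CPM to 7.21, 6.16 and 7.19 CPM (-0.59, edgeR adjusted p = 0.0021), and Nfatc1, a calcium-regulated factor, fell by 0.26 (edgeR adjusted p = 0.0179), a call lost in 4 alternatives. Havcr2 rose and Lag3 fell, the latter lost in 4 alternatives. Both lie outside the rule of at most 4 names. Pdcd1, which encodes PD-1, and Tox2 were too low to be tested. Outside the members, the 7 lists held 143 genes, of which 104 were tested, 9 rose and 13 fell, against 3.47% of all genes tested in the higher and 3.53% in the lower direction. The lists were chosen with earlier results of these data known, so these counts are a description and no test of enrichment.

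**Figure D5:**
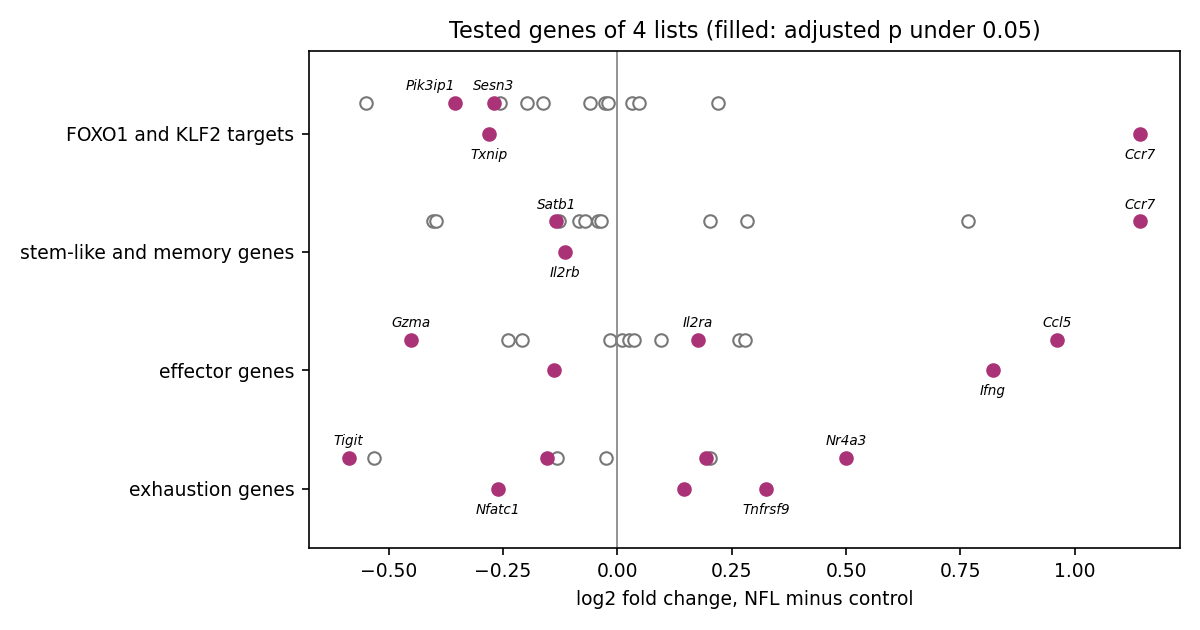
Log2 fold change, NFL minus control, of the tested genes of 4 lists, with genes past an edgeR adjusted p of 0.05 filled, up to 4 of these with the largest changes named in each row, and the others open; vertical offsets only separate points and Ccr7 stands in both upper rows. Filled points lie on both sides of 0 in every row.

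Over the 6 libraries, the expressed genes whose log2 CPM followed Id2 most closely were Gm8995 (Pearson r 0.999), Smarcc2 (0.997), a subunit of BAF chromatin remodelling complexes, and Kcnab2 (0.996), a potassium channel subunit, out of 9132 genes whose mean log2 CPM was 3 or more. Of these Kcnab2 passed the test (log2 fold change -0.21, edgeR adjusted p = 6.7e-04), and Gm8995 and Smarcc2 did not. With 6 points in 2 groups such values are a description, as libraries and group difference are shared.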

How the data were processed

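RNA of 6 T cell samples (3 control, 3 NFL) was sequenced from poly(A)-selected libraries. The authors deposited raw read counts per gene, without normalization, in 1 table with a column per sample, and 0 columns were left without a sample. The submitters' processing notes name R 4.2.1, limma 3.54.2 and GRCm39, whereas 54349 identifiers were identical to GENCODE M21 (GRCm38). Coordinates are therefore given only for promoters. The aligner, counting program and strand setting are not given in the sources used here. Symbols matched 55141 identifiers.

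In R 4.3.3, genes were filtered with filterByExpr (minimum count 10, minimum total 15), scaled by TMM (factors 0.994 to 1.007) and tested with the quasi-likelihood F test of edgeR 4.0.16. Of 14082 genes tested, 986 passed a Benjamini-Hochberg adjusted p of 0.05 (489 higher, 497 lower with NFL). With library size alone these were 372 and 600, and with GC and length offsets 484 and 394. The biological coefficient of variation was 3.48%. CPM used TMM-scaled totals. List counts came from this fit, and each alternative was a fit of its own. The study describes a gene set enrichment analysis of these data, and its methods name no gene-wise test for them. Members and lists were chosen with earlier results of these data known. Named genes are the members and, from each list, at most 4 genes past the threshold with the largest fold changes, plus direct partners of members past it. Genes named outside this rule are shown by their low counts or were chosen after their values were seen. Some listed genes are not reported here by name, and list counts include them. Figures were drawn with matplotlib 3.10.9.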

Additional observations from a re-analysis of the deposited data

How the results depend on the processing

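Id2 remained past the threshold and lower with NFL under all alternatives: DESeq2 size factors, library size alone, no filter, at least 10 counts in every sample, the DESeq2 1.42.0 Wald test, limma-voom 3.58.1, a replicate block, thinning to the depth of the smallest library, each library left out, an adjusted p of 0.01, and GC and length offsets, the last added after seeing the data. Its log2 fold change was -0.24 to -0.20 with 1 library left out, with an edgeR adjusted p of at most 1.5e-04. Members past the threshold numbered 1 in each. Prdm1 changed sign with single libraries left out, from -0.074 to 0.052, Bcl6 ran from -0.87 to -0.18 and Foxo1 from 0.037 to 0.13. The genes past the threshold numbered 986, against 605 with DESeq2, 500 at an adjusted p of 0.01, and 508 to 966 with 1 library left out, the lowest without NFL replicate 3 and 616 without NFL replicate 2. Fewer samples enter those fits, and for DESeq2 the cause was not tested. Of 25 further listed genes past the threshold, 18 kept their call in every alternative with an adjusted p, 7 lost it in some and 0 reversed. Same-numbered samples correlated at 0.0106 to 0.0154 in their deviations, each best with its own number, too weakly to pair them. With the replicate block 1049 genes passed and Id2 had -0.22. Depth limits the 6 members below the filter. DESeq2 gave Bcl6 and Ccr7 no adjusted p.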
